A study of Mus musculus with 6 samples.

Results

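The tubule claudins examined here are Cldn1, Cldn2, Cldn3, Cldn4, Cldn7, Cldn8, Cldn10, Cldn16 and Cldn19, chosen by gene symbol. All 9 were found among the 34714 genes of the expression table, and all 9 were among the 12174 genes tested. Transcripts were measured by RNA sequencing of whole kidney from mice aged 8 weeks that ate normal chow, with 3 wild-type and 3 Hspa8 knockout samples. The wild-type sample names carry C57 and the knockout names give no strain. Both mouse lines named for the knockout, one with a floxed Hspa8 allele on C57BL/6J and one carrying Cdh16-Cre, come from the labels' husbandry text. Cdh16 is active in kidney tubule epithelium, so cells outside the tubules, and tubule cells without Cre activity, keep the gene. Whether the wild-type mice carried the floxed allele or Cre is not stated in the labels, and neither is whether each sample is a different animal. The p-values therefore cover the spread among these samples alone, and that spread may be technical.

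Claudins are membrane proteins with 4 passes that join neighbouring epithelial cells in the tight junction. They set which ions and how much water can pass between the cells, and each nephron segment carries its own set. Cldn2 forms a cation and water pore in the proximal tubule. Cldn10 has an anion-selective form in the proximal tubule and a cation-selective form in the thick ascending limb. Cldn16 and Cldn19 act together in the thick ascending limb in the recovery of calcium and magnesium. Cldn3, Cldn4, Cldn7 and Cldn8 belong mainly to the distal nephron and collecting duct, and Cldn1 marks the parietal cells of Bowman's capsule. In whole tissue, fewer cells of a type and less RNA per cell cannot be told apart.

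Levels are given as FPKM, the fragments counted per kilobase of a transcript relative to all mapped fragments, so levels of different genes can be compared per length. FPKM keep no read totals and the depth of each library is unknown. Hspa8 had 1058 to 1318 FPKM in the wild-type and 650 to 781 FPKM in the knockout libraries, lower in 3 of 3. The libraries differed in ways that the groups did not explain. On the first principal component, which held 47.5% of the variance of the tested genes, wild-type replicate 3 (23.0) and knockout replicate 2 (10.6) lay at the high end, and the other libraries lay between -13.4 and 0.212. These 2 libraries were the highest of the 6 for 22.7% of tested genes and the lowest for 15.2%. Correlation did not set knockout replicate 2 apart. Its lowest with another library was 0.986, against 0.979 for wild-type replicate 3 and for knockout replicate 3. The fold changes of the members and their ratios are given with and without both libraries at the high end, wild-type replicate 3 and knockout replicate 2.

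The sequences upstream of the start sites are shown for the claudins that the results below turn on. Cldn3 and Cldn19 varied most between libraries, Cldn2 varied the opposite way, and RefSeq lists Cldn10 transcripts from 2 start regions. Whether the single Cldn10 value covers both regions is not known. RefSeq (GRCm38.p6) gave promoter windows for 8 of the 9 members, and Cldn8 is named only. Each sequence holds the 250 bases before the start, 5′ to 3′ on the gene's strand, with capitals at the matches to the motifs named in the next paragraph.
Cldn2 (chrX:139800558-139800807, + strand): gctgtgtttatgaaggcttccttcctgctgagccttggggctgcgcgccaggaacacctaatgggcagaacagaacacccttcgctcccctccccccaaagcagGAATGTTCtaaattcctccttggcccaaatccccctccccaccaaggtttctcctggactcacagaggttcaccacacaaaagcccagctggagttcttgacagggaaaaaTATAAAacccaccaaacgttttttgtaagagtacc
Cldn3 (chr5:134985964-134986213, + strand): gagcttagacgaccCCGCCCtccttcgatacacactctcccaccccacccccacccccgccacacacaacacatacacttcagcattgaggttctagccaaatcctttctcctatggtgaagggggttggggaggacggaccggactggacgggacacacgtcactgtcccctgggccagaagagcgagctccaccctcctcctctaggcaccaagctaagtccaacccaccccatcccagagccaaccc
Cldn19 (chr4:119255191-119255440, + strand): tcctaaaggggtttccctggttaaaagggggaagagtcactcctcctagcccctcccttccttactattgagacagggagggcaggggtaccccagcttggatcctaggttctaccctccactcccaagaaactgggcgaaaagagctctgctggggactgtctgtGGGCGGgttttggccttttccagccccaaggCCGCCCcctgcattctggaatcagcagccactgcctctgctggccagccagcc
Cldn10, upstream start (chr14:118787621-118787870, + strand): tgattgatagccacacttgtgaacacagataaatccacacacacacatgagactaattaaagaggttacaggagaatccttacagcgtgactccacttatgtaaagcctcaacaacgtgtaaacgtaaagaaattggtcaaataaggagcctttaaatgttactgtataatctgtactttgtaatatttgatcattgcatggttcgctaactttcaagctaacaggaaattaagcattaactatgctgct
Cldn10, downstream start (chr14:118854700-118854949, + strand): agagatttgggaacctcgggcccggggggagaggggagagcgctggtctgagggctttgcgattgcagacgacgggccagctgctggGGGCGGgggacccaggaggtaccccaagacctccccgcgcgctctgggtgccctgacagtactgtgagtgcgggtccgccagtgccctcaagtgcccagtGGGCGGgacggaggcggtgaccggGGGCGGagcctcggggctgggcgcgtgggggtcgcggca

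The upstream sequences had little in common. In the Cldn2 window a TATA box (TATAAA) stood 35 to 30 bases before the start, a motif that 12.4% of all 32851 promoter windows of this length hold on either strand. The 10 other windows of the members, some of which belong to alternative starts of 1 gene, held none. Cldn3 and Cldn19 carried the SP1 motif (GGGCGG), on either strand, which 7 of the 11 windows and 32.7% of all promoters hold. The 7 count the same Cldn19 matches in 2 overlapping windows, which begin at 119255191 and 119255219. The Cldn10 starts differed in composition: GC made up 36.0% of the upstream window, with 4 CpG dinucleotides, and 72.4% of the downstream window, with 22, against a median of 52.4% and 6 over all promoters. The downstream window held 3 SP1 matches and the upstream window 0. No match overlapped another. Searched on both strands, those of GRHL factors (AACCNGTT, in 1.79% of all promoters), HNF1 (GTTAATNAT, 0.737%), HNF4 (CAAAGTCCA, 0.384%) and SREBPs (TCACCCCAC, 0.496%) had no match in the 11 windows. The core of the heat shock element (GAANNTTC, 6.69%) matched in 1, that of Cldn2, at 146 to 139 bases before the start. The Snail E-box (CAGGTG, 17.2%) matched in 2 windows, those of Cldn4 and of the downstream Cldn7 start. These are matches of letters in this window and no measure of binding.

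Cldn10 and Cldn2 dominated the claudin transcripts of the kidney. Cldn10 averaged 170.0 ± 12.7 FPKM and Cldn2 158.7 ± 24.3 FPKM (SD over the 6 libraries), and together they made up 82.8% to 87.6% of the summed FPKM of the 9 members. Which of the pair was higher depended on the library, with Cldn10 above Cldn2 in 3 of 6. Cldn8 followed at 19.6 FPKM, 8.11 times below Cldn2, with no overlap between their ranges. Cldn19 came next at 7.82 FPKM, 2.50 times below Cldn8 and again without overlap. Below it Cldn7 (6.91), Cldn16 (6.09), Cldn3 (6.06), Cldn1 (5.88) and Cldn4 (4.70 FPKM) formed a group in which each neighbour's range overlapped the next. Cldn16 and Cldn3 exceeded one another in 3 libraries each, while Cldn7 lay above Cldn16, and Cldn1 above Cldn4, in 6 of 6.

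The members held 91.7% to 92.6% of all claudin FPKM. Of the 24 other claudin symbols, 8 were listed at 0 in every library, 13 had a mean under 1 FPKM (none above 0.66 in any library) and 3 were tested. Those were Cldn12 (21.9 FPKM on average), Cldn5 (4.20), the claudin of endothelium, and Cldn15 (4.02). The claudin-domain gene Cldnd1, outside the numbered family, was also tested.

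**Figure D1:**
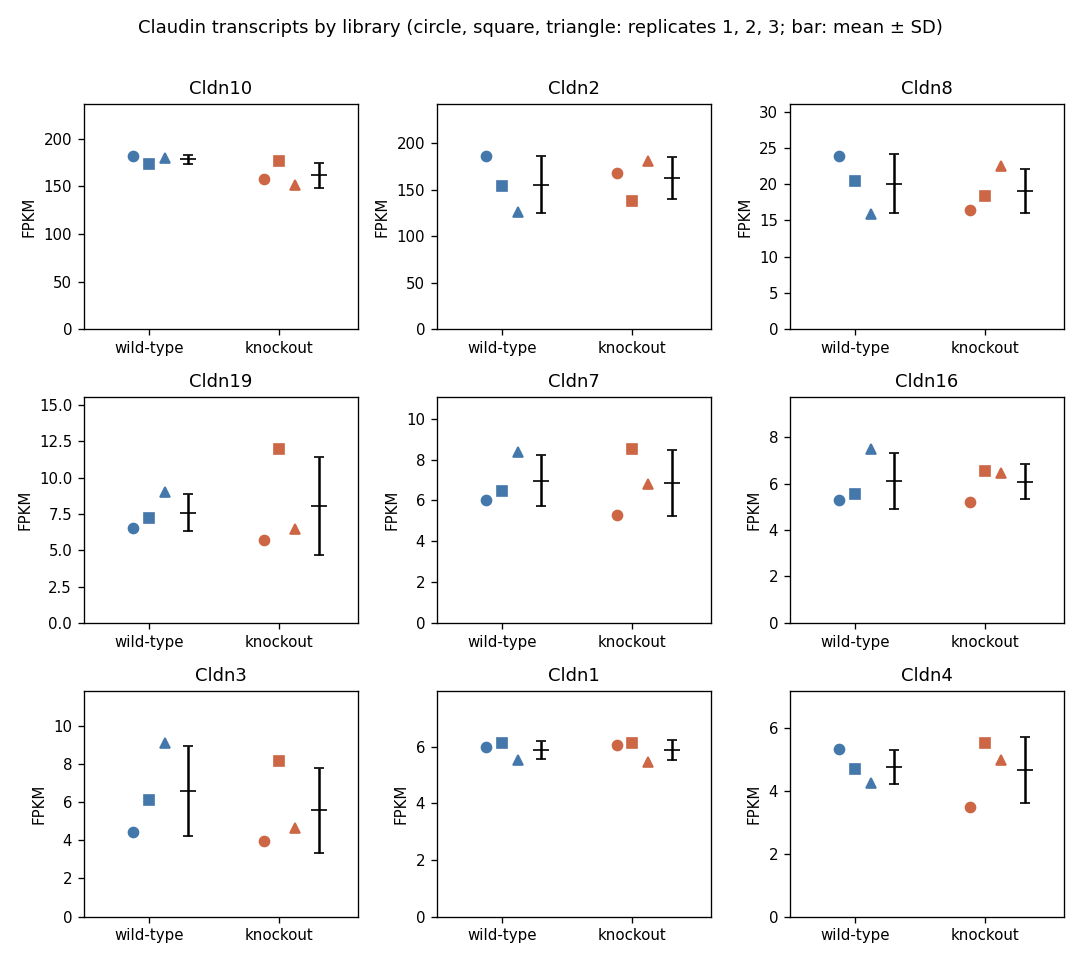
FPKM of the 9 claudins (y axis, from 0) in the 3 wild-type (blue) and 3 knockout (orange) libraries, where the circle, square and triangle are replicates 1, 2 and 3 and the bar is the mean ± SD. The groups overlap in every panel, and Cldn3, Cldn7, Cldn16 and Cldn19 are highest in wild-type replicate 3 and knockout replicate 2, where Cldn2 is lowest.

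None of the 9 claudins passed the test of knockout against wild-type, and the groups overlapped for all 9. Limma called 0 of 12174 genes at an adjusted p below 0.05 (0%), while 629 genes (5.17%) had an unadjusted p below 0.05 and 10.6% had groups that did not overlap (8.57% with knockout lower, 2.01% with knockout higher). The members' adjusted p ran from 0.996 to 1.00, with 0 of 9 at an unadjusted p below 0.05. Their log2 fold changes, on the log2(FPKM + 1) scale that understates changes of low genes, lay between -0.21 and 0.07 with a median of -0.03, against -0.04 over all tested genes. Of the 9 members 6 (66.7%) lay below 0, against 64.9% of all tested genes. A p above the threshold does not show equal levels, and the 95% intervals reached from -0.83 (Cldn3) to 0.56 (Cldn19). Without both libraries at the high end the 9 log2 fold changes lay between -0.24 (Cldn3) and 0.09 (Cldn16), and again none passed. Cldn4 was at -0.21, Cldn8 at -0.19 and Cldn7 at -0.05. In that fit 1 of the 9 members and 753 of 12075 tested genes had an unadjusted p below 0.05 (limma). The smallest p that an exact permutation of 3 against 3 can give is 0.1, and the lowest among the members was 0.2.

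Cldn2 (chromosome X, 139800808 to 139811386 in GRCm38.p6), the proximal pore, stood at 187, 154 and 126 FPKM across wild-type replicates 1, 2 and 3, against 168, 137 and 181 FPKM across knockout replicates 1, 2 and 3. The lowest library of each group was wild-type replicate 3 and knockout replicate 2, and the knockout range lay inside the wild-type range. The means were 155 ± 30.5 and 162 ± 22.5 FPKM (SD, n = 3), and the log2 fold change was 0.07 (standard error 0.162). Leaving out wild-type replicate 3 turned it to -0.07, and leaving out both libraries at the high end gave 0.04.

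Cldn10 (chromosome 14, 118787871 to 118874525), the other abundant claudin, stood at 182, 173 and 179 FPKM across the wild-type and at 158, 176 and 151 FPKM across the knockout replicates 1, 2 and 3. Knockout replicates 1 and 3 lay below all wild-type values, and knockout replicate 2 lay among them. The means were 178 ± 4.44 and 162 ± 13.2 FPKM (SD, n = 3), and the log2 fold change of -0.14 (standard error 0.0915, 95% interval -0.35 to 0.07) had the smallest p of the members (limma, 0.155 unadjusted, 0.996 adjusted; exact permutation p = 0.2). Without both libraries at the high end it was -0.20 with a standard error of 0.0825 (limma adjusted p = 0.782). Cldn10 was the 1 member at an unadjusted p below 0.05 in that fit. RefSeq lists 6 transcripts of Cldn10 from the 2 start regions shown above, and the gene value does not separate the proximal from the thick limb form. The ratio of Cldn2 to Cldn10 ran from 0.700 to 1.20 over the libraries, with a mean of 0.870 ± 0.163 in wild-type and 1.02 ± 0.216 in knockout kidneys (SD, n = 3; exact two-sided permutation p = 0.4).

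Cldn16 and Cldn19 pair in the thick ascending limb junction, where their proteins bind each other. Cldn16 (chromosome 16, 26463135 to 26482765) stood at 5.30, 5.56 and 7.47 FPKM across the wild-type and at 5.22, 6.54 and 6.47 FPKM across the knockout replicates 1, 2 and 3. The group means, 6.11 ± 1.19 and 6.08 ± 0.747 FPKM (SD, n = 3), differed by less than either SD, and the log2 fold change of 0.001 had a 95% interval from -0.31 to 0.31. Cldn19 (chromosome 4, 119255441 to 119262438) stood at 6.55, 7.20 and 9.03 FPKM across the wild-type and at 5.72, 11.9 and 6.48 FPKM across the knockout replicates 1, 2 and 3. Knockout replicate 2 alone stood above the wild-type range, and the other knockout libraries lay below it. The log2 fold change of Cldn19 was 0.02 (standard error 0.235). It was -0.27 without knockout replicate 2 and -0.15 without both libraries at the high end. Cldn19 exceeded Cldn16 by a ratio of 1.25 ± 0.0442 in wild-type kidneys, and in knockout kidneys the ratio was 1.31 ± 0.451 and reached 1.83 in replicate 2 (SD, n = 3; exact permutation p = 1). As log2 of Cldn16 over Cldn19, each + 1, the groups differed by -0.0214, and by 0.236 without both libraries at the high end.

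Among the distal claudins Cldn3 (chromosome 5, 134986214 to 134987476), a sealing claudin, varied most. It stood at 4.44, 6.13 and 9.10 FPKM across the wild-type and at 3.96, 8.12 and 4.62 FPKM across the knockout replicates 1, 2 and 3. Its highest value was 2.30 times its lowest, and the spread ran within both groups. The log2 fold change was -0.21 (standard error 0.272), and it ran from -0.47 without knockout replicate 2 to 0.02 without wild-type replicate 3. Cldn7 (chromosome 11, 69964779 to 69967886), of the basolateral membrane as well as the junction, stood at 6.03, 6.48 and 8.37 FPKM across the wild-type and at 5.30, 8.51 and 6.78 FPKM across the knockout replicates 1, 2 and 3. The same libraries were high as for Cldn3, and the means were 6.96 ± 1.25 and 6.86 ± 1.61 FPKM (SD, n = 3).

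Cldn4 and Cldn8 form the chloride-selective path of the collecting duct, where Cldn8 brings Cldn4 to the junction. Cldn8 (chromosome 16, 88560826 to 88563183) stood at 23.9, 20.4 and 15.9 FPKM across the wild-type and at 16.4, 18.4 and 22.4 FPKM across the knockout replicates 1, 2 and 3, with means of 20.1 ± 4.02 and 19.1 ± 3.07 FPKM (SD, n = 3). Wild-type replicate 1 and knockout replicate 3 were highest, and the knockout range lay inside the wild-type range. Cldn4 (chromosome 5, 134945123 to 134946934) stood at 5.32, 4.69 and 4.23 FPKM across the wild-type and at 3.49, 5.51 and 4.95 FPKM across the knockout replicates 1, 2 and 3. Its highest and lowest values were both in knockout libraries. Cldn3 and Cldn4 lie 39279 bases apart on chromosome 5, and wild-type replicate 3, the highest library for Cldn3, was next to lowest for Cldn4.

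Cldn1 (chromosome 16, 26356645 to 26371839), which lies 91295 bases from Cldn16, was the steadiest member. It stood at 5.99, 6.12 and 5.52 FPKM across the wild-type and at 6.05, 6.13 and 5.46 FPKM across the knockout replicates 1, 2 and 3, a coefficient of variation of 5.22% over the 6 libraries, against 35.1% for Cldn3. The group means were 5.88 ± 0.319 and 5.88 ± 0.365 FPKM (SD, n = 3), and the log2 fold change had the smallest standard error of the 9 (0.0856), with a 95% interval of the fold from 0.872 to 1.15. Nphs1, the podocyte protein nephrin from the same corpuscle, stood at 4.03, 5.42 and 6.75 FPKM across the wild-type and at 5.04, 4.20 and 3.25 FPKM across the knockout replicates 1, 2 and 3 and followed another order.

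**Figure D2:**
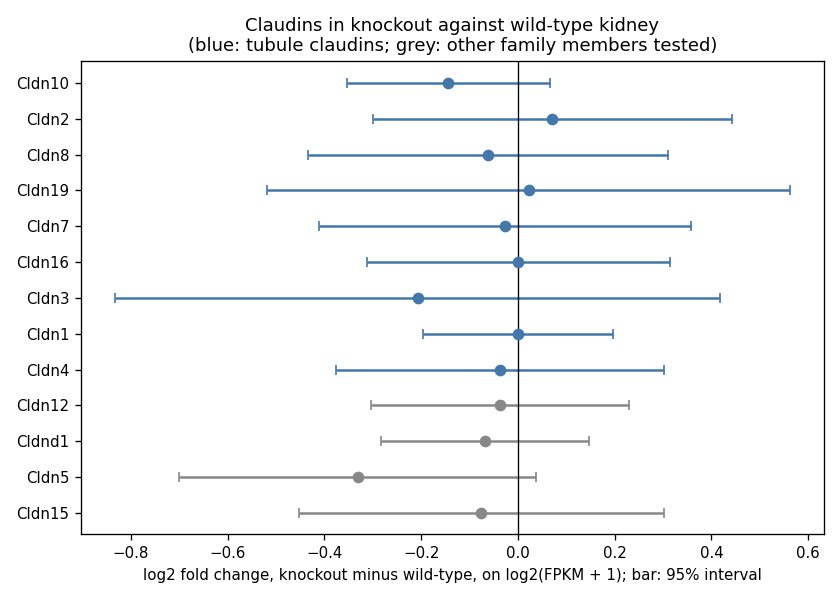
Log2 fold change of knockout against wild-type (x axis, on log2(FPKM + 1)) with its 95% interval for the 9 tubule claudins in order of level (blue) and for 4 other tested genes (grey). Every interval includes 0, from the narrowest, Cldn1, to the widest, Cldn3, which reaches -0.83.

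Several claudins had their highest or lowest values in the same pair of libraries, and so did some markers of nephron segments. Wild-type replicate 3 and knockout replicate 2 were the highest 2 of the 6 libraries for Cldn3, Cldn7, Cldn16 and Cldn19, 4 of 9 members against 22.7% of tested genes. For Cldn2 they were the lowest 2, 1 of 9 against 15.2%. Parts of several marker lists were highest or lowest in the same libraries. Of the 9 tested thick ascending limb markers 4 were highest in that pair of libraries and 0 lowest, among them Slc12a1, the sodium, potassium and chloride cotransporter, and Umod, uromodulin. All 3 thin limb markers were highest there, and their summed level was 40.3 and 56.3 FPKM in these libraries against 15.8 to 28.8 FPKM in the others. Of the 12 proximal tubule markers 0 were highest and 4 lowest there, among them the phosphate transporter Slc34a1 and the endocytic receptors Lrp2 and Cubn. Of the 9 distal convoluted and connecting tubule markers 1 was highest and 4 lowest, and of the 10 intercalated cell markers 0 and 4. Of the 9 tested principal cell markers 3 were highest and 0 lowest. The pattern was not confined to nephron segments. Highest there were 5 of 6 tested immune cell and 4 of 6 tested tubular injury markers, against 2 of 12 endothelial, 0 of 7 podocyte and 0 of 4 red cell markers. The part of these shifts in the claudin values was not tested.

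The summed proximal tubule markers lay between 7336 and 8213 FPKM in wild-type and between 7615 and 8368 FPKM in knockout libraries. The thick ascending limb sum was 1564 to 2011 FPKM over the wild-type and 1371 to 2116 FPKM over the knockout libraries, and the sum for principal cells 203 to 231 and 162 to 275 FPKM. No nephron segment list had a member called over all genes, and the median log2 fold changes were -0.004 (proximal tubule), 0.02 (thick ascending limb), -0.02 (distal convoluted and connecting tubule), -0.03 (principal cells), -0.08 (intercalated cells) and -0.19 (thin limb, 3 markers). Podocyte markers had a median of -0.29 and immune cell markers of -0.11. Markers of the urothelium, which also carries Cldn4 and Cldn7, were near 0. All 8 were under the testing limit, with sums of 2.09 to 7.12 FPKM over the wild-type and 1.26 to 9.94 FPKM over the knockout libraries, highest in wild-type replicate 3 and knockout replicate 2. Tubular injury markers, a setting in which Cldn1 and Cldn4 can rise, summed to 476 to 573 and 454 to 552 FPKM, and Havcr1 stayed between 0.452 and 1.58 FPKM. Red cell transcripts differed most between the groups, at 43.3 to 53.4 FPKM over the wild-type and 69.4 to 545 FPKM over the knockout libraries.

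**Figure D3:**
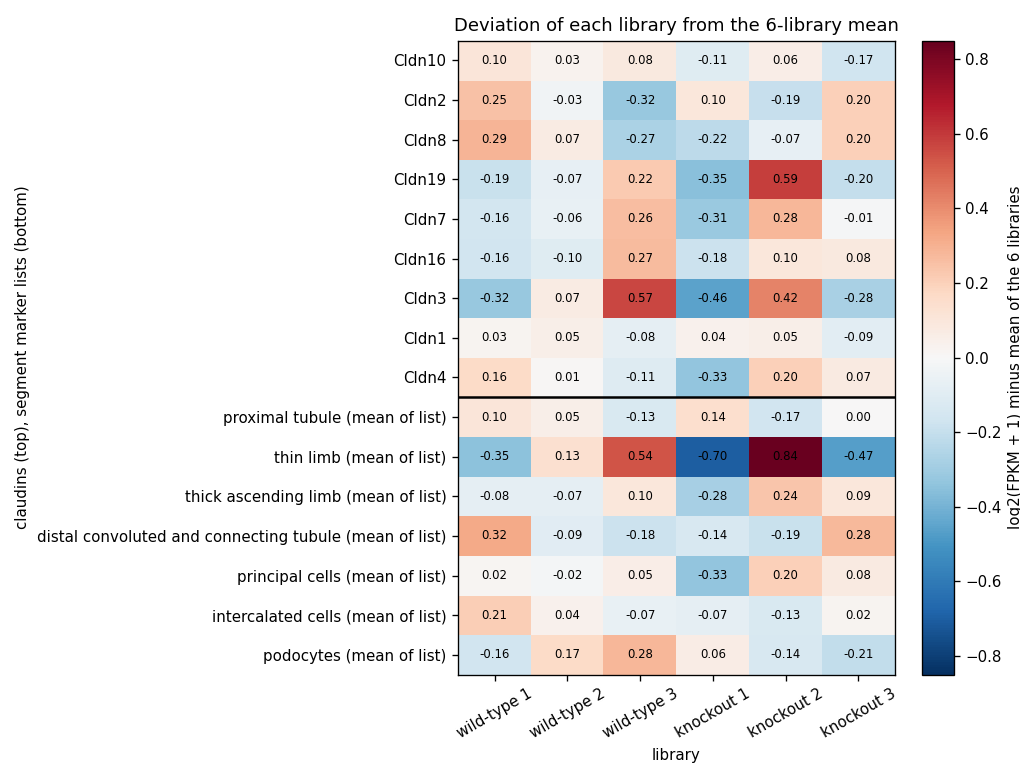
Deviation of log2(FPKM + 1) from the mean of the 6 libraries, for each claudin (rows above the line) and for the mean of each segment marker list (rows below), with red above and blue below the mean. Cldn3 and Cldn19 are highest in the pair of libraries where the thin limb and thick ascending limb lists are highest, and lowest in knockout replicate 1, where both lists are lowest, and the proximal tubule list is low where Cldn2 is lowest.

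Each claudin was then set beside a marker gene within each library, as log2 of the ratio of FPKM + 1. The marker was not always of the claudin's own place: Cldn1 was set beside the podocyte gene Nphs1, and Cldn3 beside Slc12a1 of the thick ascending limb. Cldn16 with Cldn19 and Cldn2 with Cldn10 were pairs of claudins. Over the 11 pairs the groups overlapped in every one, and the exact two-sided permutation p ran from 0.3 to 1 (0.856 to 1 after Benjamini-Hochberg adjustment over the 11 pairs). The largest difference was that of Cldn1 to Nphs1, with -0.249 to 0.476 in wild-type and 0.222 to 0.605 in knockout libraries. It was 0.302, and 0.10 without both libraries at the high end. On their own, Cldn1 had a log2 fold change of -8.2e-05 and Nphs1 of -0.30. Cldn2 relative to Cldn10 came next at 0.215 (0.247 without both), and Cldn2 relative to Slc34a1 differed by 0.114 (0.0477). Relative to Slc12a1, Cldn19 differed by 0.0926 (0.00521 without both), Cldn16 by 0.0713 (0.241), Cldn10 by -0.0733 (-0.0480) and Cldn3 by -0.137 (-0.0825). Relative to Aqp2, Cldn8 differed by -0.169 (-0.134 without both), Cldn4 by -0.144 (-0.157) and Cldn7 by -0.134 (0.00632).

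Leaving out 1 library at a time turned the sign of the difference for 6 of the 11 pairs. Without knockout replicate 2 the differences of Cldn8, Cldn4 and Cldn7 to Aqp2 were 0.235, 0.128 and 0.102, that of Cldn10 to Slc12a1 was 0.0728 and that of Cldn16 to Cldn19 was 0.220. Without wild-type replicate 1 Cldn10 to Slc12a1 was 0.0736, and Cldn8 and Cldn4 to Aqp2 were 0.0893 and 0.0544. Without knockout replicate 1 Cldn16 to Slc12a1 was -0.0382. The other 5 pairs kept their sign, over ranges of 0.0136 to 0.189 for Cldn19 and -0.220 to -0.0300 for Cldn3 to Slc12a1, 0.0331 to 0.216 for Cldn2 to Slc34a1, 0.0678 to 0.394 for Cldn2 to Cldn10 and 0.114 to 0.477 for Cldn1 to Nphs1.

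Cldn3, Cldn16 and Cldn19 were highest in the same pair of libraries as Slc12a1, and Cldn10 was not. Slc12a1 stood at 174, 211 and 249 FPKM across the wild-type and at 151, 267 and 196 FPKM across the knockout replicates 1, 2 and 3. The 3 claudins were also lowest where it was, in knockout replicate 1, while Cldn10 was highest in wild-type replicate 1 and lowest in knockout replicate 3. The span of a ratio over the libraries depends on how far each gene varies, so it does not show by itself whether they rise and fall together. Cldn19 spanned 0.945 on the log2 scale over the 6 libraries and its ratio to Slc12a1 spanned 0.351. Cldn3 spanned 1.03 and its ratio 0.504, Cldn16 0.447 and its ratio 0.542, and Cldn10 0.269 and its ratio 0.659. Cldn2 spanned 0.567 and its ratio to Slc34a1 0.437.

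The collecting duct claudins differed in how their library order compared with that of Aqp2, the vasopressin-regulated water channel of principal cells. Aqp2 stood at 51.4, 54.1 and 83.8 FPKM across the wild-type and at 37.2, 114 and 68.8 FPKM across the knockout replicates 1, 2 and 3. Cldn7 had the same order of the 6 libraries as Aqp2, over a smaller range (its highest value was 1.61 times its lowest, against 3.05 times for Aqp2). Cldn4 shared the highest and the lowest library with Aqp2, but wild-type replicate 3 was next to highest for Aqp2 and next to lowest for Cldn4. Cldn8 was lowest in wild-type replicate 3. The span of Cldn8 was 0.560 alone and 1.49 as a ratio, that of Cldn4 0.537 and 1.09, and that of Cldn7 0.595 and 0.990. Set beside Slc12a3, the thiazide-sensitive cotransporter of the distal convoluted tubule, a pair added after the values were seen, Cldn8 spanned 0.704 as a ratio. Slc12a3 stood at 186, 150 and 116 FPKM across the wild-type and at 166, 119 and 235 FPKM across the knockout replicates 1, 2 and 3. Its highest pair of libraries, wild-type replicate 1 and knockout replicate 3, was also that of Cldn8. Among the tested principal cell markers, Scnn1b, Scnn1g and Hsd11b2 were highest in that pair as well. Aqp2, Avpr2 and Fxyd4 were highest in wild-type replicate 3 and knockout replicate 2, and Aqp3, Aqp4 and Gata3 in other pairs.

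**Figure D4:**
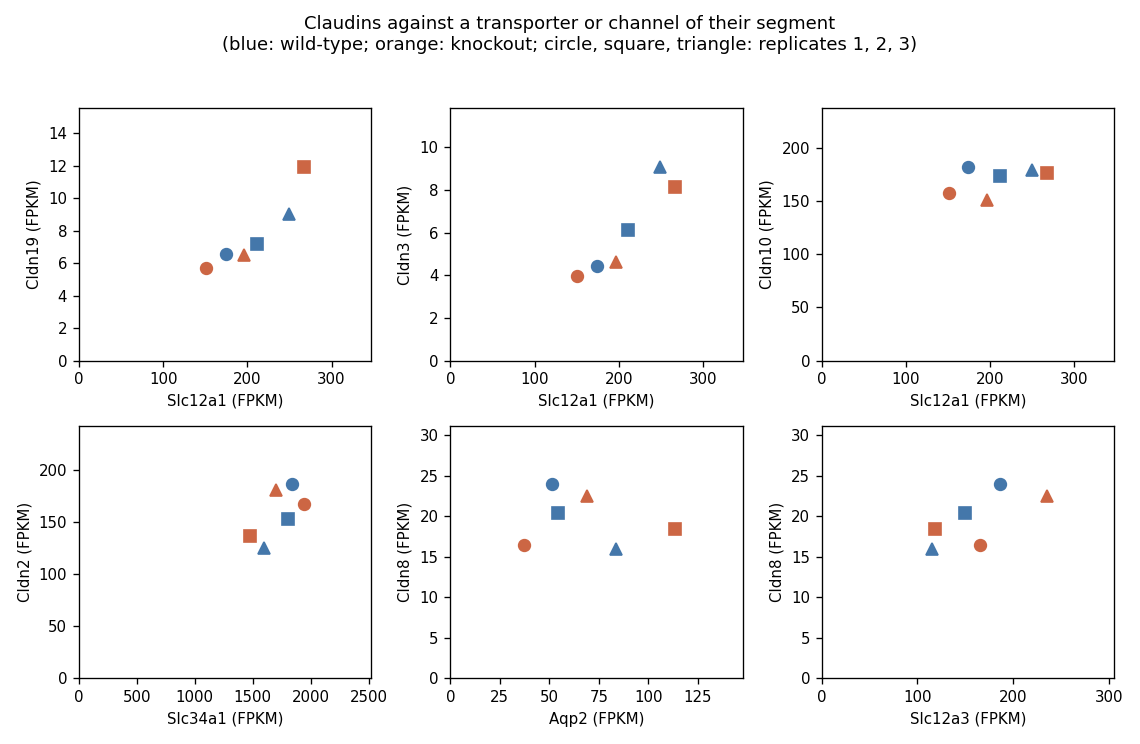
FPKM of a claudin (y axis) against FPKM of a transporter or channel gene (x axis), 1 point per library, with wild-type in blue, knockout in orange and replicates 1, 2 and 3 as circle, square and triangle. Cldn19 and Cldn3 rise along Slc12a1 with both groups interleaved, Cldn10 stays between 151 and 182 FPKM, and Cldn8 shows no such line along Aqp2.

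The genes whose pattern over the 6 libraries was most like that of a member were taken from 8118 or 8119 other genes with a mean of at least 5 FPKM, by Pearson correlation of log2(FPKM + 1). These likenesses are descriptions over 6 points that share library, depth and tissue composition. The closest genes to Cldn2 were Ipo8, Zyg11b and BC005537 (r = 0.999, 0.999 and 0.998), and 390 genes exceeded 0.95. For the other members the number of genes above 0.95 ran from 11 (Cldn1 and Cldn16) to 94 (Cldn3). The genes closest to Cldn10 were Diablo, Zfp280d and Tmem128 (0.999, 0.996 and 0.991). For Cldn3 they were Serpina1f, Dzip1l and Crip2 (0.997, 0.993 and 0.992), and for Cldn7 they included Rhob and the protease gene St14 (0.992 and 0.985). For Cldn19 they were Ak1, Akr1d1 and Trpt1 (0.994, 0.987 and 0.986), for Cldn16 Gdf15, Syngr1 and Zyx (0.983, 0.981 and 0.977), and for Cldn8 Oxct1, Ermp1 and Yipf4 (0.991, 0.991 and 0.988). Cldn4 was closest to Mccc2, Sap30bp and the polarity gene Pard6b (0.988, 0.987 and 0.983), and Cldn1 to Foxred1, Tmem174 and Tcp11l2 (0.986, 0.983 and 0.982). No member of the claudin family was among these closest genes.

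Claudins are held in the junction by scaffold and polarity proteins, and a list of 26 such partners was read from the same fit. None was called in either direction, 8 lay above 0 and 18 below, and the median log2 fold change was -0.03. The groups did not overlap, with knockout lower, for Jam3 and F11r, 2 of 26 against 8.57% of the tested genes. Jam3, a junctional adhesion molecule also found on endothelium, stood at 14.7, 13.5 and 14.1 FPKM across the wild-type and at 12.2, 12.7 and 9.88 FPKM across the knockout replicates 1, 2 and 3, which gave a log2 fold change of -0.27 (standard error 0.105, limma, 0.0347 unadjusted, 0.947 adjusted). F11r, another adhesion molecule of that family, averaged 30.5 ± 1.88 and 28.7 ± 0.496 FPKM (SD, n = 3; limma adjusted p = 0.998). The next smallest p after Jam3 belonged to the scaffold Magi3 (-0.22), Amotl1 (-0.16), an angiomotin, and the apical polarity gene Crb3 (-0.16), and none passed. The core scaffold gene Tjp1, which encodes ZO-1, averaged 8.10 ± 0.250 FPKM over the wild-type and 7.52 ± 0.391 FPKM over the knockout kidneys, and Ocln, occludin, 7.75 ± 0.719 and 7.37 ± 0.232 FPKM (SD, n = 3).

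Of the 12 endothelial markers none was called over all genes, while all 12 lay below 0 with a median of -0.36 and 10 had an unadjusted p below 0.05 (5.17% of all tested genes). Their sum was 167 to 231 FPKM over the wild-type and 126 to 168 FPKM over the knockout libraries. Cldn5, the endothelial claudin, stood at 3.64, 4.92 and 5.88 FPKM across the wild-type and at 3.95, 3.93 and 2.90 FPKM across the knockout replicates 1, 2 and 3 and its log2 fold change was -0.33 (standard error 0.161, limma adjusted p = 0.973). That was further from 0 than any of the 9 tubule claudins, and the difference between them was not tested. Cldn12, Cldn15 and Cldnd1 had log2 fold changes of -0.04, -0.08 and -0.07. The part of endothelial content in the Jam3 and Cldn5 values was not tested.

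Of 18 genes that act on claudin levels, phosphorylation or trafficking none was called in either direction, with 7 above 0, 11 below it, and their median log2 fold change was -0.02. Stk39, the kinase SPAK downstream of the WNK kinases, had the smallest p, at 8.05, 7.67 and 8.67 FPKM across the wild-type and 7.72, 12.0 and 10.4 FPKM across the knockout replicates 1, 2 and 3 (log2 fold change 0.26, standard error 0.144, limma adjusted p = 0.973). Knockout replicates 2 and 3 lay above the wild-type range and replicate 1 near its bottom. The syntaxin gene Stx8 had a log2 fold change of -0.11, the claudin ubiquitin ligase relative Lnx2 -0.09, and Grhl2, a transcription factor of epithelial junction genes, -0.09. Casr, the calcium-sensing receptor through which the thick ascending limb adjusts its claudins, averaged 10.5 ± 0.367 FPKM over the wild-type and 11.4 ± 2.03 FPKM over the knockout kidneys (SD, n = 3). Wnk4, Klhl3 and Cul3, which encode a kinase with known action on claudins and parts of the ubiquitin ligase that degrades it, had log2 fold changes of 0.09, -0.06 and 0.03.

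**Figure D5:**
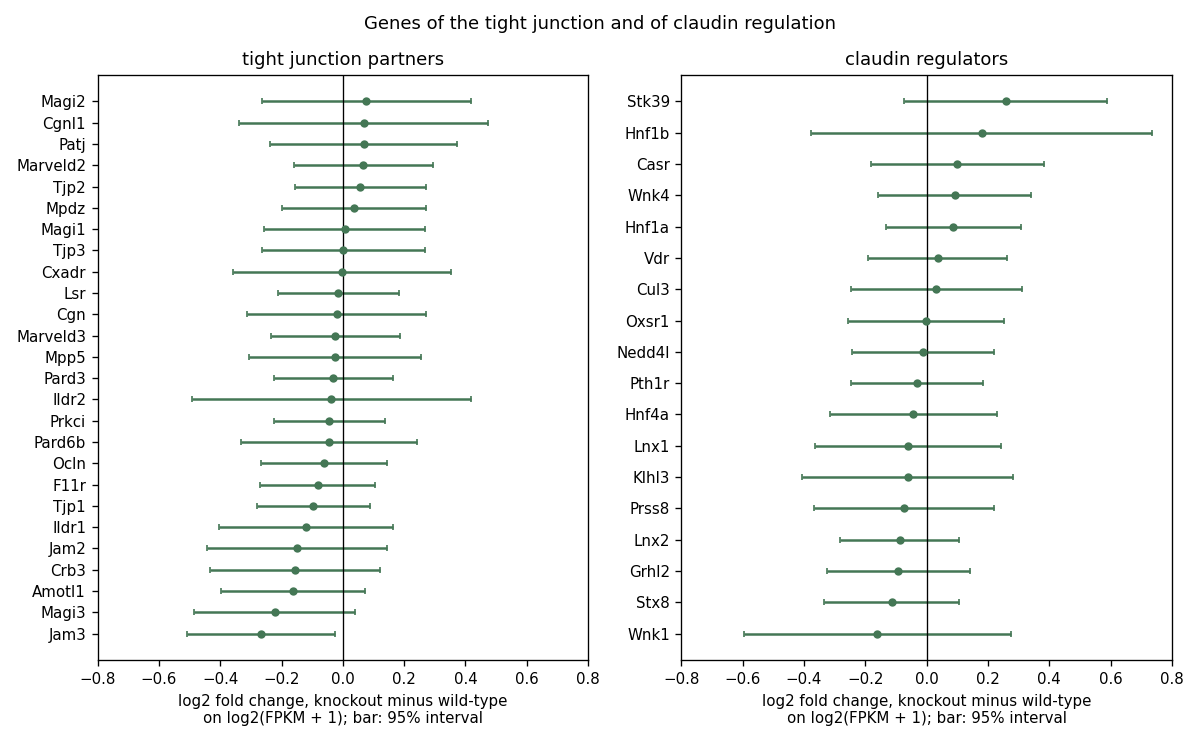
Log2 fold change of knockout against wild-type (x axis, on log2(FPKM + 1)) with its 95% interval for 26 tight junction partners (left) and 18 claudin regulators (right). All intervals but that of Jam3 include 0, before any adjustment for the number of genes.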

How the data were processed

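The deposited file is a table of FPKM, made by the authors, with a value for each gene in each library. The submitters' processing notes name GRCm38 and mm10, labels of a single assembly, as builds, and per the labels' protocols a SMARTer kit turned total RNA into libraries. Aligner, quantifier and annotation: not given in the sources used here. Columns were matched to samples by name: the knockout columns carry A8, taken as the end of HSPA8, and the sample's number. Genes with a mean of at least 1 FPKM were tested on log2(FPKM + 1) by limma 3.58.1 (R 4.3.3) with a term for group, a trend on the mean and Benjamini-Hochberg adjustment over 12174 genes at 0.05. The analysis named all members, other claudins above the limit, the 4 partners and 4 regulators of smallest p (further ones were chosen after their values were seen), and the 3 genes most like each member, of which 1 is not reported here. Members, lists and tests were chosen with earlier results of these data known. On data simulated for knockout against wild-type, with 12174 genes, limma recovered 40.3% of the changes of 0.5 (log2), 85.1% of those of 1 and 97% of those of 2. The changes were put into 67, 67 and 66 genes, and 12 unchanged genes were called as well. Each gene was drawn independently, without the shifts that genes share across the real libraries. These rates therefore may not hold for the real data. Without a stated strand, reads of Cldn3, Cldn10 and Cldn19 cannot be told from those of overlapping long noncoding RNA genes, which averaged at most 0.849 FPKM. No 2 libraries held identical columns of values.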

Additional observations from a re-analysis of the deposited data

How the results depend on the processing

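No claudin, tight junction partner or claudin regulator was called under any of the 17 alternatives, 16 planned and 1 chosen after seeing the data. The last leaves out both libraries at the high end of the first component (wild-type replicate 3, knockout replicate 2). The members' adjusted p ran from 0.667 to 1 over them. Over all genes 5 were called without knockout replicate 2, all of them globin genes, and the same 5 without both libraries, so that leaving out 1 library gave 0 to 5. The sign of a member's change turned in 30 of 152 cases, and the cause was not tested. On log2(FPKM + 5) Cldn1 was 2.79e-05 and Cldn16 -0.00090. With library sums equalised Cldn1 was 0.038 and Cldn7 0.012. With medians equalised Cldn1, Cldn4 and Cldn7 were 0.051, 0.014 and 0.024, and with quantiles equalised they were 0.053, 0.020 and 0.022. Without both libraries Cldn19 was -0.15. The other turns came when 1 library was left out, and only Cldn10 kept its sign throughout. Leaving out 1 library at a time gave -0.038 to 0.045 for Cldn1 (-0.065 without both libraries), -0.071 to 0.21 for Cldn2, -0.47 to 0.025 for Cldn3, -0.15 to 0.12 for Cldn4, -0.17 to 0.12 for Cldn7, -0.21 to 0.068 for Cldn8, -0.21 to -0.096 for Cldn10, -0.080 to 0.13 for Cldn16 and -0.27 to 0.21 for Cldn19. Where this left 2 samples in a group, the spread was pooled with the other group. The ratios of the 11 pairs moved by less than 1 SD, pooled over both groups, in all 99 cases. Still, the sign turned for 6 of 11 when 1 library was left out, and for Cldn16 to Cldn19 and Cldn7 to Aqp2 without both libraries. The replicate numbers share only a number: deviations of same-numbered libraries correlated at 0.307, -0.215 and -0.321, and with the replicate block 0 genes and 0 members were called (417 genes at an unadjusted p below 0.05). Depth is unknown, so counting error cannot be told from the other spread between libraries.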
